A study of Gallus gallus with 12 samples.

Results

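Gene expression in the pineal gland was compared between late subjective night and subjective day in chicks that stayed in darkness. The comparison set 2 arrays of dark glands at circadian time (CT) 22 against 2 arrays of dark glands at CT6, 4 of the 12 arrays of the series. Circadian time is the hour of the animal's own day in constant conditions, counted from the time at which lights used to come on. Male chicks 8 days old had lived for 7 days under 12 h of light a day and then for 1 day in darkness. Each array carried biotin-labelled cRNA from 9 µg of total RNA of 6 pooled glands, and the labels call the 2 arrays of a group biological samples. The other 4 groups, also of 2 arrays each, were dark glands at CT14 and glands exposed to light for 1 h at CT6, CT14 or CT22, collected as the pulse ended. No genotype, strain or drug is given for any group. All groups shared the entrainment and the day of darkness, and the labels do not give the hours that each group had spent in the dark by collection. The question this pair addresses is which transcripts of the gland differ between night and day without any light cue.

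The avian pineal gland contains its own circadian clock and its own photoreceptors, and it secretes melatonin at night. In the clock, CLOCK and BMAL1 (ARNTL) activate genes for PER and CRY proteins, which then block their own activators, while NR1D and ROR nuclear receptors set the level of ARNTL. Melatonin is made from serotonin by AANAT and ASMT, and AANAT is the step that follows the time of day most closely in birds and mammals.

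Pinealocyte markers differed widely in intensity. TPH1, the first enzyme from tryptophan to serotonin, had normalised log2 intensities of 13.21 and 13.17 on the CT22 dark arrays and of 13.26 and 13.26 on the CT6 dark arrays. ASMT, the last enzyme of melatonin synthesis, had 12.89 and 12.81 on the CT22 dark arrays and 12.85 and 12.85 on the CT6 dark arrays. Of 17 pinealocyte markers, 14 had a probe set and 12 of these passed the filter on low values, a mean above log2 3.73. The photoreceptor-type markers SAG and PDE6C, with means of 4.10 and 4.58 over all 12 arrays, lay near that filter, and no detection calls were used. The glands were whole tissue, so fewer cells of a type and less RNA per cell cannot be told apart in any result below. The CT22 dark arrays had deposited median intensities of 28.9 and 24.6, and the CT6 dark arrays 23.1 and 22.9. Quantile normalisation removed this difference in scale. Pairs of arrays of a group correlated with r = 0.942 at CT22 and 0.939 at CT6 in the dark, and with 0.931 to 0.942 over all 6 groups. The 3'/5' signal ratio of the actin control, a measure of RNA integrity, was 3.94 and 4.10 at CT22 and 3.89 and 4.17 at CT6. The number of arrays limits the precision throughout: with 2 against 2, an exact two-sided permutation test cannot go below p = 0.333, so calls rest on limma's moderated test, whose spread was estimated over all 12 arrays.

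Of 23063 probe sets tested, 139 (0.603%) were higher and 117 (0.507%) were lower in CT22 dark glands than in CT6 dark glands at an adjusted p under 0.05 (limma, Benjamini-Hochberg over all probe sets tested), 1.11% in all. The unadjusted p was under 0.05 for 2630 probe sets (11.4%). The other pairs of dark times gave more calls, 3.48% for CT14 minus CT6 and 6.53% for CT22 minus CT14. These comparisons share arrays with the one described here. Read as genes, each from its tested probe set of highest mean, 153 of 10424 passed (1.47%), 90 higher (0.863%) and 63 lower (0.604%). The arrays of the 2 groups did not overlap for any of the 153, and did not overlap for 44.3% of all genes tested. Changes were mostly under 2-fold. The median log2 change was 0.65 among the higher probe sets and -0.65 among the lower ones, and 23 higher and 24 lower probe sets passed 2-fold. The largest rise of a called probe set was 3.18 and the largest fall 1.95. Of the 139 higher probe sets 121 named 1 gene, and of the 117 lower ones 83. The split between directions depended on the scale: arrays centred on their medians gave 204 higher and 60 lower, and deposited values without normalisation gave 1229 and 28, where all tested probe sets were shifted by a median of 0.062 and 0.28. Without CT22 dark replicate 1, CT22 dark replicate 2, CT6 dark replicate 1 or CT6 dark replicate 2, the count of 256 became 72, 114, 165 and 112.

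**Figure D1:**
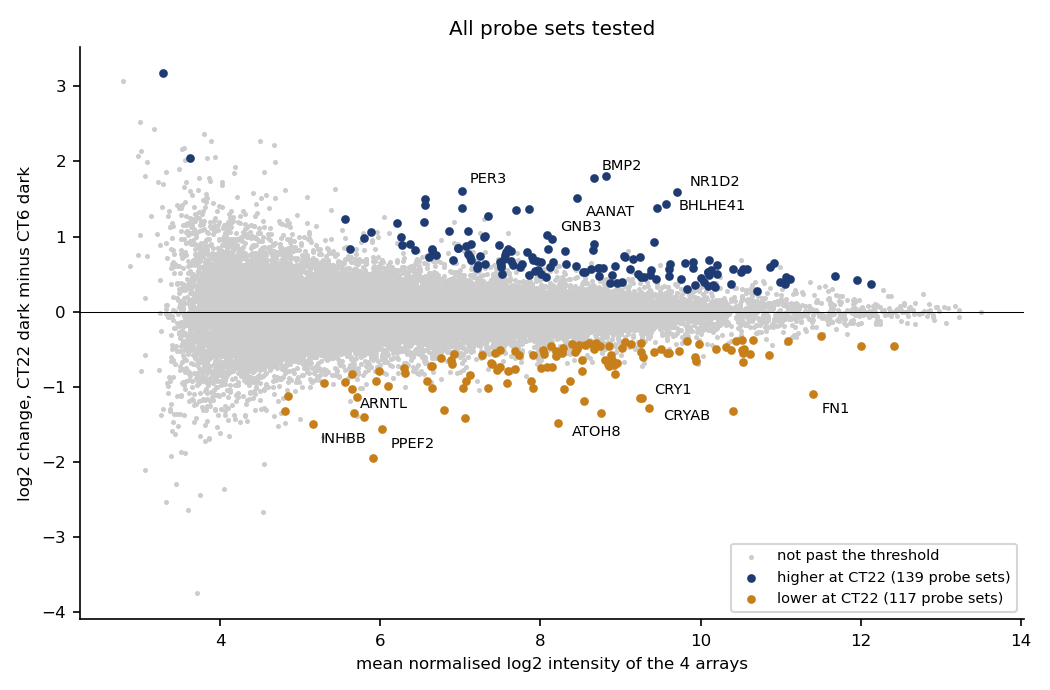
Log2 change (CT22 dark minus CT6 dark, vertical axis) against the mean normalised log2 intensity of the 4 arrays (horizontal axis), 1 point per probe set tested. The 139 probe sets called higher and the 117 called lower are coloured, most of them within 2-fold, and 13 genes of the text are named.

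Genes of the circadian clock were among the largest changes in both directions. Of 24 clock genes tested, 5 rose in CT22 dark glands (PER3, NR1D2, BHLHE41, BHLHE40 and HLF) and 3 fell (CRY1, ARNTL and NFIL3). The 8 calls came from a list of 24, while 1.47% of all genes tested passed. The list's median change was -0.04, against 0.0081 over all genes tested, with 11 members above 0 and 13 below. The values as deposited put this median at 0.27, close to the shift of all probe sets on that scale. The 8 calls became 5, 7, 5 and 5 without CT22 dark replicate 1, CT22 dark replicate 2, CT6 dark replicate 1 and CT6 dark replicate 2, and 3 with no variance trend in the fit.

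NR1D2, a nuclear receptor that represses ARNTL, had log2 intensities of 10.50 and 10.51 on the CT22 dark arrays, against 9.01 and 8.82 on the CT6 dark arrays. It rose 3.01-fold (log2 1.59, SE 0.10, limma adjusted p = 6.68e-06). Its CT14 dark arrays, at 9.30 and 9.19, lay much nearer to CT6 than to CT22. All 4 further NR1D2 probe sets tested also rose, by 1.43 to 1.80.

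BHLHE41 and BHLHE40 encode the DEC2 and DEC1 repressors, which compete with CLOCK and BMAL1 at their binding sites. BHLHE41 had 10.35 and 10.24 at CT22 in the dark, against 8.84 and 8.87 at CT6, a rise of 1.44 (SE 0.10, limma adjusted p = 8.01e-06). BHLHE40 had 7.96 and 8.02 at CT22 in the dark, against 7.00 and 6.42 at CT6. The rise of 1.28 (SE 0.17, limma adjusted p = 0.00196) was larger than the gap between the CT6 arrays, which were the less tight pair. Other BHLHE40 probe sets, at 0.79 and 0.40, did not pass. At CT14 in the dark, both genes lay below both other times, at 7.37 and 7.16 for BHLHE41 and 5.97 and 5.85 for BHLHE40.

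Of the period genes, PER3 passed and PER2 did not. PER3 had 7.73 and 7.91 on the CT22 dark arrays, against 6.26 and 6.17 on the CT6 dark arrays, and rose by 1.60 (SE 0.34, limma adjusted p = 0.042). PER2 had 6.49 and 7.04 at CT22 and 6.96 and 7.01 at CT6, a change of -0.22 (SE 0.25, limma adjusted p = 0.827) with overlapping arrays. Both were low on the CT14 dark arrays, where PER3 had 3.40 and 4.99 and PER2 had 3.61 and 4.50. A second PER3 probe set rose by 0.99 (adjusted p = 0.0292, limma) and another, at 0.84, did not pass. Further PER2 probe sets, at 0.29, -0.10 and 0.33, did not pass either. The PER3 call was lost when any 1 of the 4 arrays was left out, with changes of 1.51 to 1.69.

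The cryptochrome CRY1 fell. Its arrays stood at 8.70 and 8.69 for CT22 dark, against 9.83 and 9.86 for CT6 dark, a change of -1.15 (SE 0.09, limma adjusted p = 3.04e-05). A second CRY1 probe set fell by 1.49. The CT14 dark arrays, at 9.55 and 9.83, were near those of CT6. CRY2 had 8.84 and 8.71 at CT22 and 8.47 and 8.59 at CT6, and its change of 0.24 did not pass (limma adjusted p = 0.285). The gene listed as LOC395100, with CRY4 as a synonym, changed by -0.32 and did not pass either.

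Among the activators, ARNTL had 5.04 and 5.21 on the CT22 dark arrays, against 6.17 and 6.15 on the CT6 dark arrays. It fell by 1.03 (SE 0.17, limma adjusted p = 0.00955), and 1 further ARNTL probe set fell by 1.35 while a dimmer one, at -0.15, did not pass. CLOCK, its partner, had 8.71 and 8.35 at CT22 and 9.01 and 9.06 at CT6 in the dark (log2 -0.51, limma adjusted p = 0.12). ARNTL2, a paralogue of ARNTL, had 7.95 and 7.98 at CT22 and 8.13 and 7.92 at CT6. Its change was -0.06, with overlapping arrays, although its CT14 dark arrays, at 9.10 and 9.15, were higher than those of CT6 (log2 1.10, limma adjusted p = 8.27e-05). The ARNTL call was lost without CT22 dark replicate 1 and without either CT6 dark replicate, with changes of -1.12 to -0.95 over the 4 omissions.

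Of the output regulators tested, HLF rose, NFIL3 fell and TEF did not pass. HLF, an activator of the PAR bZIP family, rose by 0.75 (SE 0.10, limma adjusted p = 0.00204), with 9.43 and 9.41 at CT22 in the dark against 8.71 and 8.64 at CT6. NFIL3, which represses through the same DNA element, fell by 0.65 (SE 0.11, limma adjusted p = 0.0101), with 6.49 and 6.63 at CT22 against 7.22 and 7.20 at CT6. TEF, another PAR bZIP gene, changed by -0.05. NFIL3 stood highest on the CT14 dark arrays, at 8.24 and 7.96. Its call ended without CT22 dark replicate 1 or either CT6 dark replicate, with changes of -0.72 to -0.58. The remaining clock members did not pass either. These were USP2 at 0.60, BTRC and PPP1CB at 0.34, RORA at 0.09, CSNK1E at 0.02, RORB at -0.03, FBXW11 at -0.04, CSNK1D at -0.05, PPP1CA at -0.09 and NPAS2 at -0.53.

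**Figure D2:**
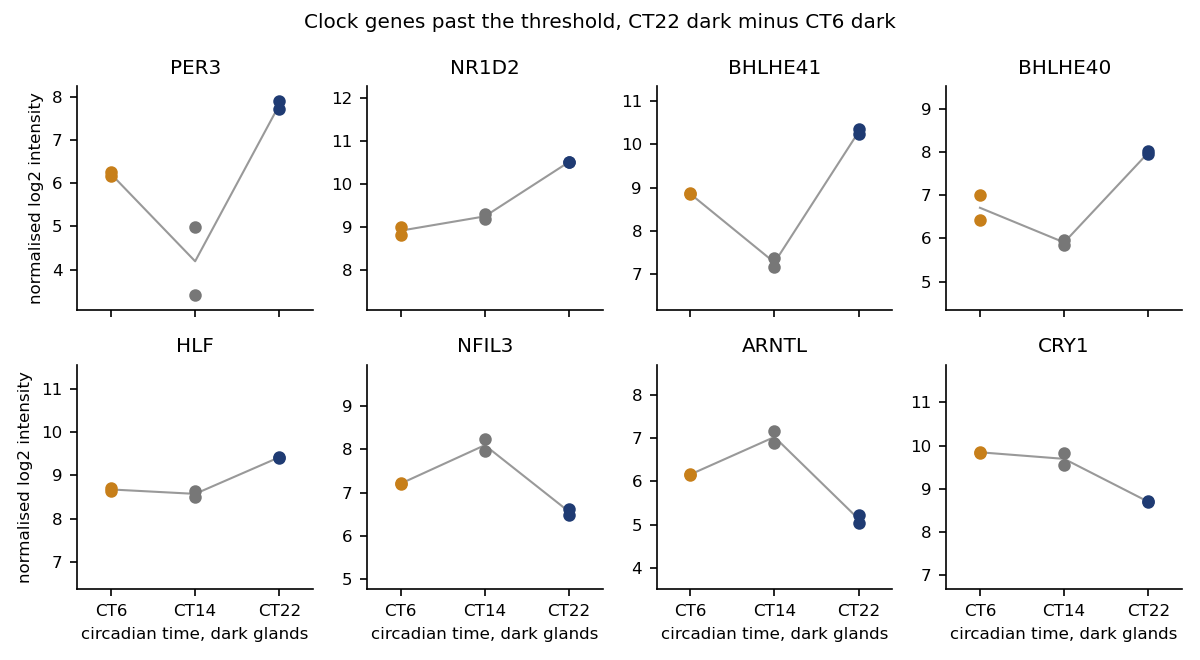
Normalised log2 intensity (vertical axis) of the 8 clock genes past the threshold in dark glands at CT6, CT14 and CT22 (horizontal axis), 1 point per array and a line through the group means; every panel spans the same range of log2 units. CT22 lies above CT6 for PER3, NR1D2, BHLHE41, BHLHE40 and HLF and below it for NFIL3, ARNTL and CRY1, and for PER3, BHLHE41, BHLHE40, ARNTL and NFIL3 the CT14 arrays lie outside the range of the other 4.

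Within melatonin synthesis, AANAT passed the test, while TPH1, DDC and ASMT did not. AANAT, which acetylates serotonin, had 10.21 and 10.08 on the CT22 dark arrays, against 8.78 and 8.74 on the CT6 dark arrays. It rose 2.61-fold (log2 1.39, SE 0.10, limma adjusted p = 1.42e-05). Its CT14 dark arrays lay between, at 9.22 and 9.52. TPH1 changed by -0.07 and ASMT by -0.0034 in the same comparison (limma adjusted p = 0.697 and 0.995). DDC, which makes serotonin from 5-hydroxytryptophan, had 8.31 and 8.43 at CT22 and 8.89 and 8.63 at CT6 (log2 -0.39, limma adjusted p = 0.184).

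GCH1, the entry enzyme of the tetrahydrobiopterin cofactor that TPH1 needs, fell by 0.55 (SE 0.08, limma adjusted p = 0.00401), with 9.29 and 9.38 at CT22 against 9.92 and 9.84 at CT6. The GCH1 call was lost without CT22 dark replicate 1, with changes of -0.59 to -0.50 over the 4 omissions. The later cofactor enzymes PTS, SPR, PCBD1 and QDPR changed by -0.24, 0.18, 0.05 and -0.07, and none passed. MAOB, an oxidase that degrades amines, rose by 1.19 (SE 0.24, limma adjusted p = 0.0329), with 7.17 and 7.13 at CT22 against 5.58 and 6.33 at CT6. The CT6 arrays were wide apart, and the MAOB call ended without either CT22 dark replicate or without CT6 dark replicate 1, with changes of 0.82 to 1.56. MAOA changed by 0.13 and did not pass.

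In all, 2 of 19 melatonin genes rose and 1 fell, where 0.863% of all genes tested were higher and 0.604% lower. The list median was -0.07, which was 0.18 on the deposited scale. The regulators of AANAT in the list did not pass. CREM, a cAMP-responsive factor, changed by 0.25, YWHAZ, a 14-3-3 protein that protects AANAT, by 0.14, CREB1 by -0.21 and PRKAR2B by 0.42. The receptors ADRA2A, VIPR1 and ADCYAP1R1 changed by -0.14, -0.30 and -0.49, and ADCY1 by -0.34. Further probe sets did not all share these signs, with ADCY1 at 0.69 and 0.33, PRKAR2B at -0.25 and CREB1 at 0.21 and -0.94. None of these passed.

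Of 30 photoreceptor genes tested, GNB3 and RLBP1 rose and OPNP and RPE65 fell, where 1.47% of all genes tested passed in either direction. The median change was 0.16. GNB3, the cone-type transducin beta subunit, had 8.56 and 8.70 on the CT22 dark arrays, against 7.66 and 7.65 on the CT6 dark arrays. Its rise was 0.97 (SE 0.14, limma adjusted p = 0.00327), a second probe set rose by 1.07, and the CT14 dark arrays were higher still, at 9.52 and 9.80. Pinopsin (OPNP), the blue-sensitive opsin of the chick pineal gland, had 10.25 and 10.25 at CT22, against 10.66 and 10.63 at CT6. It fell by 0.39 (SE 0.09, limma adjusted p = 0.0461). RPE65, an isomerase of the visual cycle, fell by 0.58 (SE 0.10, limma adjusted p = 0.0095), and RLBP1, which binds 11-cis-retinal, rose by 0.35 (SE 0.07, limma adjusted p = 0.035).

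The OPNP and RLBP1 calls were lost with any 1 of the 4 arrays left out, with changes of -0.41 to -0.38 and 0.29 to 0.40. The RPE65 call was lost without CT22 dark replicate 1 or CT6 dark replicate 1, with changes of -0.68 to -0.48. Effector and channel genes did not pass, among them PDE6B at 0.60 (limma adjusted p = 0.0756), PDE6C at 1.19 (0.174), CNGA1 at -0.78 (0.123) and CNGA3 at 0.36 (0.35). Of 8 transcription factors of pineal and photoreceptor identity tested, NR2E3, a photoreceptor nuclear receptor, rose by 0.80 (SE 0.11, limma adjusted p = 0.00286), with 8.75 and 8.68 at CT22 against 7.95 and 7.87 at CT6. Its call ended without CT22 dark replicate 1, with changes of 0.76 to 0.84. The homeobox genes OTX2 and ISL1 changed by -0.02 and 0.28 and did not pass. By limma before adjustment 4 of these 8 factors were up and 0 down at p under 0.05, where 12.7% of all genes tested passed in either direction. After adjustment 1 of the 8 factors passed as higher, where 0.863% of all genes tested did. The median of the 8 factors was 0.23, with 7 above 0. NEUROD4, a basic helix-loop-helix factor with the widest difference of them, changed by 2.28 (SE 0.75) and did not pass (limma adjusted p = 0.231), with 5.79 and 5.49 at CT22 in the dark against 4.03 and 2.69 at CT6. PPEF2, a phosphatase known from mammalian photoreceptors and on none of the lists, had the largest decrease past the threshold of any gene with a symbol, each gene read from its probe set of highest mean. Its arrays stood at 5.50 and 4.98 at CT22 in the dark, against 7.11 and 6.50 at CT6, a change of -1.57 (SE 0.23, limma adjusted p = 0.00487), and the call was lost without CT22 dark replicate 2, with changes of -1.87 to -1.26 over the 4 omissions.

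Beyond these, the leading increases were headed by BMP2, a secreted ligand of the bone morphogenetic protein family. BMP2 had 9.62 and 9.49 on the CT22 dark arrays, against 7.72 and 7.83 on the CT6 dark arrays, the largest rise past the threshold of any gene with a symbol on the same reading. The change of BMP2 was 3.43-fold (log2 1.78, SE 0.11, limma adjusted p = 2.78e-06), and the CT14 dark arrays stayed near those of CT6, at 7.39 and 7.56. A further BMP2 probe set, at 1.39, did not pass. A further probe set of NR1D2, at 1.80, lay above the value of BMP2, and the largest rise past the threshold over all probe sets was 3.18. GRB7, an adaptor of receptor tyrosine kinases, rose by 1.36, CACNG3, an auxiliary subunit of AMPA receptors, by 1.18 and SSX2IP, a centrosome and junction protein, by 1.02. SYP, the synaptic vesicle protein synaptophysin, rose by 0.93 (SE 0.12, limma adjusted p = 0.0016), with 9.80 and 9.97 at CT22 against 9.02 and 8.90 at CT6. A further SYP probe set, at 0.64, did not pass. The rest of the leading 15 were ALPK3, a protein kinase known from heart muscle, at 1.00, FAM19A1, a secreted brain protein, at 1.00, BOK of the BCL2 family, at 0.90, and 7 genes given above. CACNG3, ALPK3, FAM19A1 and BOK lost their calls under 3 or 4 of the 4 omissions, with lowest changes of 1.05, 0.96, 0.83 and 0.75. Further probe sets of ALPK3, FAM19A1 and BOK, at 0.83, 0.52 and 0.43, did not pass.

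The leading decreases included signalling, transport and matrix genes. INHBB, the beta B subunit of activin and inhibin, had 4.68 and 4.13 on the CT22 dark arrays, against 5.91 and 5.90 on the CT6 dark arrays (log2 -1.50, SE 0.20, limma adjusted p = 0.00233). Its CT14 dark arrays were higher than both, at 6.99 and 7.03. A further INHBB probe set, at -0.90, did not pass. ATOH8, a basic helix-loop-helix factor, had 7.97 and 8.18 at CT22, against 9.39 and 9.47 at CT6 (log2 -1.35, SE 0.14, limma adjusted p = 0.000302). CRYAB, a small heat shock protein, had 8.61 and 8.82 at CT22, against 9.90 and 10.09 at CT6 (log2 -1.28, SE 0.17, limma adjusted p = 0.00194). The CT14 dark arrays, at 7.97 and 8.44 for ATOH8 and at 8.30 and 8.998 for CRYAB, lay near those of CT22 for both genes.

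FN1, fibronectin of the extracellular matrix, had 10.84 and 10.88 on the CT22 dark arrays, against 12.07 and 11.84 on the CT6 dark arrays. It fell by 1.10 (SE 0.12, limma adjusted p = 0.000665), and 3 of the 5 further FN1 probe sets tested fell by 1.15 to 1.32. The other 2, which were dimmer, changed by -0.09 and -0.23 and did not pass. The CT14 dark arrays, at 10.68 and 10.94, lay near those of CT22. PLK2, a polo-like kinase, fell by 0.92 (SE 0.11, limma adjusted p = 0.000798), with 7.88 and 7.93 at CT22 against 8.83 and 8.82 at CT6, and both further probe sets also fell. The organic anion transporter SLCO1A2 and the transferase GGT2 each fell by 1.01.

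HHIPL2 at -1.42, the sulphate transporter SLC13A1 at -1.32, the copper transporter ATP7B at -0.99, SAMD11 at -0.92 and the collagen COL23A1 at -0.85 completed the leading 15 with ARNTL and CRY1. Each of these 5 lost its call under 2 to 4 of the 4 omissions. The smallest falls that remained were -1.15 for HHIPL2, -1.06 for SLC13A1, -0.73 for ATP7B, -0.79 for SAMD11 and -0.73 for COL23A1. A further SAMD11 probe set, at -0.03, did not pass, and neither did further ATP7B probe sets at -0.90, -0.11 and -1.01. Leaving out 1 array cannot reverse the direction of groups that do not overlap, and no gene past the threshold had overlapping groups. The direction under these omissions was therefore fixed in advance. Over all 60 genes past the threshold that are named here by rule, 24 kept their call with any 1 array left out, 14 lost it with each in turn, and none changed direction. CT22 dark replicate 1 ended 33 of these calls, CT22 dark replicate 2 ended 26, CT6 dark replicate 1 ended 21 and CT6 dark replicate 2 ended 29.

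**Figure D3:**
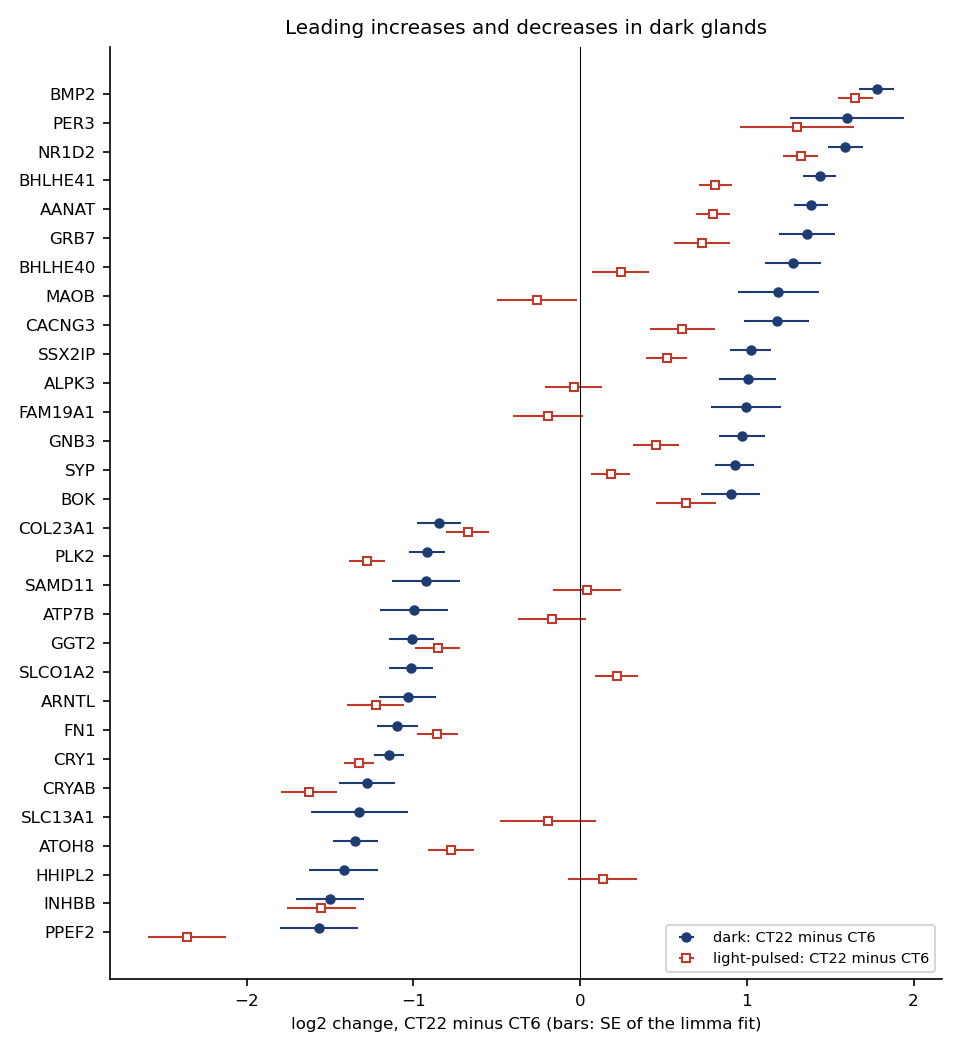
Log2 change, CT22 minus CT6, with its limma SE (horizontal axis) for the 15 leading increases and 15 leading decreases of dark glands (vertical axis). Filled circles are dark glands, which chose the genes, and open squares are light-pulsed glands, other arrays in the same fit. In light-pulsed glands 12 of the 15 increases lay above 0 and 12 of the 15 decreases below it.

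Of 41 cytosolic heat shock proteins and co-chaperones tested, 8 rose and 1, CRYAB, fell, where 0.863% of all genes tested were higher and 0.604% lower. The list's median change was 0.21, against 0.0081 over all genes tested, with 32 above 0 and 9 below. With arrays centred on their medians 13 rose and 1 fell, and without 1 array at a time 1 fell and 4 (CT22 dark replicate 1) or 5 (each of the other 3 arrays) rose. With no variance trend none of the 41 passed. HSPA2, a chaperone of the HSP70 family, had 10.50 and 10.54 on the CT22 dark arrays, against 9.92 and 9.89 on the CT6 dark arrays (log2 0.62, SE 0.08, limma adjusted p = 0.00128). HSPA8, the constitutive HSP70, had 12.31 and 12.32 at CT22, against 11.89 and 11.99 at CT6 (log2 0.37, SE 0.05, limma adjusted p = 0.00242). The J-domain partners of HSP70 rose as well, DNAJA1 by 0.63 (SE 0.08) and DNAJA4 by 0.59 (SE 0.07). HSP90AA1, HSF2, HSPD1 and CCT2 rose by 0.42, 0.46, 0.39 and 0.30.

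CCT2 and HSPD1, chaperonin subunits of the cytosol and the mitochondrion, lost their calls with any 1 array left out, with lowest changes of 0.26 and 0.37. HSP90AA1 and HSF2, a cytosolic HSP90 and a heat shock transcription factor, lost theirs under 3 of the 4 omissions, with lowest changes of 0.28 and 0.41. Further probe sets of HSP90AA1 and HSF2, at 0.60 and 0.50, passed, while a further HSPD1 probe set, at 0.46, did not. Values for members that did not pass included HSPH1 at 0.56, HSP90AB1 at 0.25, HSPB1 at -0.01 and SERPINH1 at 0.02. On the CT14 dark arrays HSPA2 had 9.73 and 9.87 and HSPA8 had 11.79 and 11.82. Neither gene passed between CT14 and CT6 in the dark (log2 -0.10 and -0.14).

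In the endoplasmic reticulum, 4 of 31 chaperone and unfolded protein response genes rose and none fell, where 0.863% of all genes tested were higher. The list median was 0.08. Before adjustment 7 were above and 1 below CT6 at p under 0.05, where 12.7% of all genes tested passed in either direction. HSPA5, the HSP70 of this compartment, had 11.30 and 11.18 at CT22, against 10.56 and 10.62 at CT6 (log2 0.65, SE 0.07, limma adjusted p = 0.000634). XBP1, a transcription factor of the unfolded protein response, rose by 0.57, DNAJB9, a J-domain protein, by 0.50, and HSP90B1, the HSP90 of this compartment, by 0.39. DNAJB9 lost its call with any 1 array left out and HSP90B1 without CT22 dark replicate 1 or CT6 dark replicate 2, with lowest changes of 0.44 and 0.30. Further DNAJB9 probe sets, at 0.85 and 0.66, passed, while a further HSP90B1 probe set, at 0.41, did not. None of the 31 passed with no variance trend. None of 17 ATF4 stress targets passed (before adjustment 1 was up and 0 down).

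**Figure D4:**
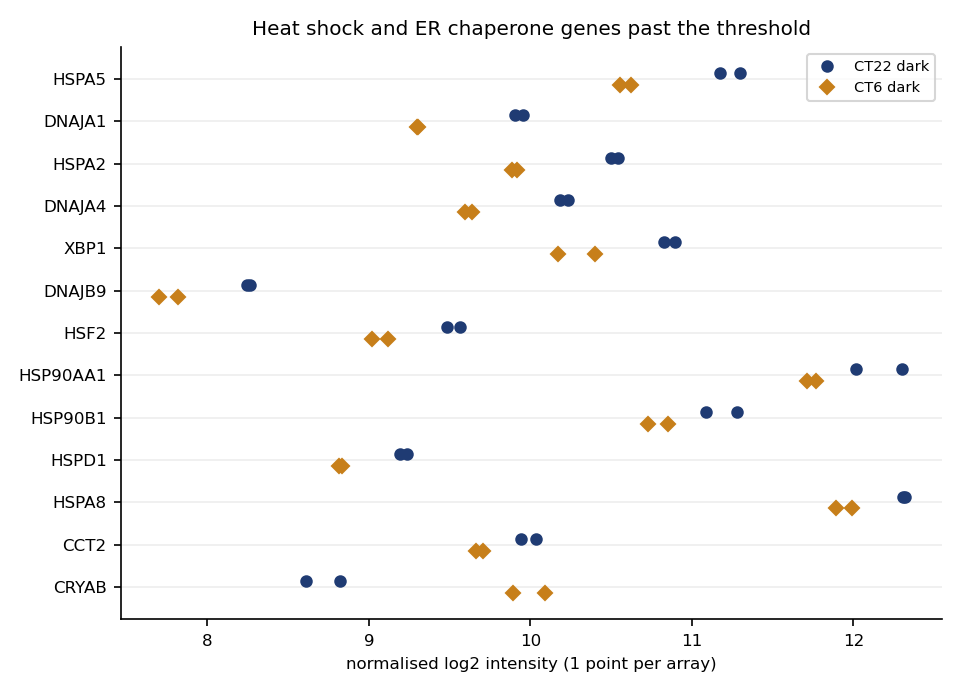
Normalised log2 intensity (horizontal axis) of the heat shock and endoplasmic reticulum chaperone genes past the threshold (vertical axis), 1 point per array, with CT22 dark as circles above CT6 dark as diamonds. Both CT22 arrays lie to the right of both CT6 arrays for every gene drawn except CRYAB, where they lie to the left.

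Immediate early genes, which neurons and other cells induce within minutes of stimulation, were tested for 14 members. SIK1 rose by 0.72 (SE 0.11, limma adjusted p = 0.0047), with 9.35 and 9.49 at CT22 in the dark against 8.77 and 8.62 at CT6. EGR1 rose by 0.68 (SE 0.13, limma adjusted p = 0.0216), with 10.51 and 10.39 at CT22 against 9.85 and 9.68 at CT6, and a second EGR1 probe set rose by 0.83. BTG2 rose by 0.61 (SE 0.11, limma adjusted p = 0.0204). These 3 of 14 rose and none fell, where 0.863% of all genes tested were higher and 0.604% lower. By limma before adjustment 6 were up and 2 down at p under 0.05, where 12.7% of all genes tested passed in either direction. The list median was 0.14. All 3 calls were lost without CT22 dark replicate 2 and without CT6 dark replicate 2, and those of EGR1 and BTG2 also without CT22 dark replicate 1, with lowest changes of 0.65 for SIK1, 0.60 for EGR1 and 0.50 for BTG2. JUN and MYC changed by 0.06 and -0.16 and did not pass.

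Lipid and hormone genes gave single calls in either direction, where 1.47% of all genes tested passed. HMGCS1, an early enzyme of sterol synthesis, fell by 0.45 (SE 0.09, limma adjusted p = 0.0292), with 7.91 and 7.91 at CT22 against 8.33 and 8.39 at CT6. It was the only one of 26 sterol genes past the threshold, in a list with a median of -0.14. By limma before adjustment 6 of the list were down and 0 up at p under 0.05, where 12.7% of all genes tested passed in either direction. On the deposited scale the median of the sterol list was 0.14, below the shift of 0.28 of all probe sets. ELOVL2, an elongase of polyunsaturated fatty acids, fell by 0.82 (limma adjusted p = 0.0486) as 1 of 21 fatty acid genes, with a list median of -0.05. Of 19 thyroid hormone and retinoid genes DIO2, which activates thyroxine, rose by 0.56 (SE 0.10, limma adjusted p = 0.0121), and SLCO1C1, a thyroxine transporter, fell by 0.78 (SE 0.16, limma adjusted p = 0.0295). The list median was 0.04. HMGCS1 and ELOVL2 lost their calls with any 1 array left out, with changes of -0.48 to -0.42 and -1.01 to -0.64. DIO2 and SLCO1C1 lost theirs under 3 of the 4 omissions, with changes of 0.41 to 0.71 and -1.09 to -0.47. Further SLCO1C1 probe sets, at -0.56, -1.18, -0.65 and -0.50, did not pass, and neither did a further DIO2 probe set at 0.40.

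No gene passed in 10 further lists, where 1.47% of all genes tested did. By limma before adjustment 12.7% of all genes tested had p under 0.05 in either direction, the share to set beside the unadjusted counts below. Signalling and channel lists were the 34 genes of cyclic nucleotide signalling (median 0.03, with 2 up and 3 down by limma before adjustment, the 2 counts given next for each list), the 16 calcium channels and pumps (0.02, 2 and 2), the 26 potassium channels (0.06, 1 and 1), the 29 MAP kinases and phosphatases (0.0013, 2 and 3) and the 26 neuropeptides, receptors and transporters (-0.04, 0 and 2). Housekeeping lists were the 33 genes of glycolysis and the hypoxia response (0.03, 3 and 6), the 41 subunits of the respiratory chain (0.0061, 0 and 0), the 60 ribosomal proteins (0.0067, 2 and 1) and the 27 proteasome subunits (0.07, 2 and 0), besides the ATF4 targets above. The respiratory chain subunits were the least spread, from -0.18 to 0.18.

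Markers of other cell types in or around the gland gave 4 calls among those tested. Over all genes tested, 1.47% passed in either direction. Of 24 fibroblast and meningeal markers, PTGDS, a prostaglandin synthase of the meninges, fell by 0.46 (SE 0.06, limma adjusted p = 0.00298). The summed linear intensity of this list was 16571 and 18002 on the CT22 dark arrays, against 19316 and 19673 on the CT6 dark arrays. Among its collagens, COL1A1 changed by -0.35 and COL1A2 by -0.28, and neither passed. Of 18 endothelial and mural markers, ABCC9, a channel subunit of pericytes, fell by 0.74 (limma adjusted p = 0.0332), with sums of 2983 and 2957 at CT22 and of 3026 and 3309 at CT6. Of 11 neuronal markers, NEFL and ELAVL4 rose by 0.66 and 0.75, with sums of 4449 and 4538 at CT22 and of 4795 and 4445 at CT6. A further ELAVL4 probe set changed by 0.11 and did not pass (limma adjusted p = 0.923). NEFL and ABCC9 lost their calls with any 1 array left out, with changes of 0.64 to 0.67 and -0.78 to -0.70, ELAVL4 under 3 omissions, at 0.58 to 0.92, and PTGDS without CT22 dark replicate 1, at -0.56 to -0.36.

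No choroid plexus or ependymal marker of 15 passed (before adjustment 0 were up and 5 down), and their sums were 14755 and 15633 at CT22 and 15858 and 17290 at CT6. For this and the other unadjusted counts of these markers, 12.7% of all genes tested had p under 0.05 in either direction (limma). The 14 lymphocyte markers had a median of -0.31 and sums of 1211 and 838 at CT22 and of 1290 and 1142 at CT6, with 1 up and 1 down before adjustment. Of these 14 markers, 1 lay above 0 and 13 below. For 13 macrophage markers the sums were 5420 and 5070 at CT22 and 6117 and 5790 at CT6, with 1 up and 0 down. For 17 glial markers they were 5458 and 5745 at CT22 and 5251 and 5890 at CT6, with 0 and 0. The sums of the fibroblast, endothelial, choroid and macrophage lists were all lower at CT22 with no overlap between the groups. With 2 arrays a group, non-overlap is common, and it held for 44.3% of all genes tested, a share of single genes and not of sums. Sums of many other lists did not overlap either. Those of the clock, heat shock, endoplasmic reticulum, ribosomal and proteasome lists were higher at CT22. Those of the sterol, fatty acid, cyclic nucleotide and MAP kinase lists were lower. Of 10 erythrocyte markers and 8 skeletal muscle markers none passed (1 and 1, 2 and 0). The skeletal muscle sums, 636 and 617 at CT22 and 558 and 610 at CT6, were higher at CT22 without overlap, and the erythrocyte sums overlapped. The 12 pinealocyte markers tested, which include AANAT and OPNP, had sums of 29722 and 28765 at CT22 and 28916 and 27736 at CT6. The part of any of these cell types in the changes above, such as that of fibroblasts in FN1, was not tested.

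**Figure D5:**
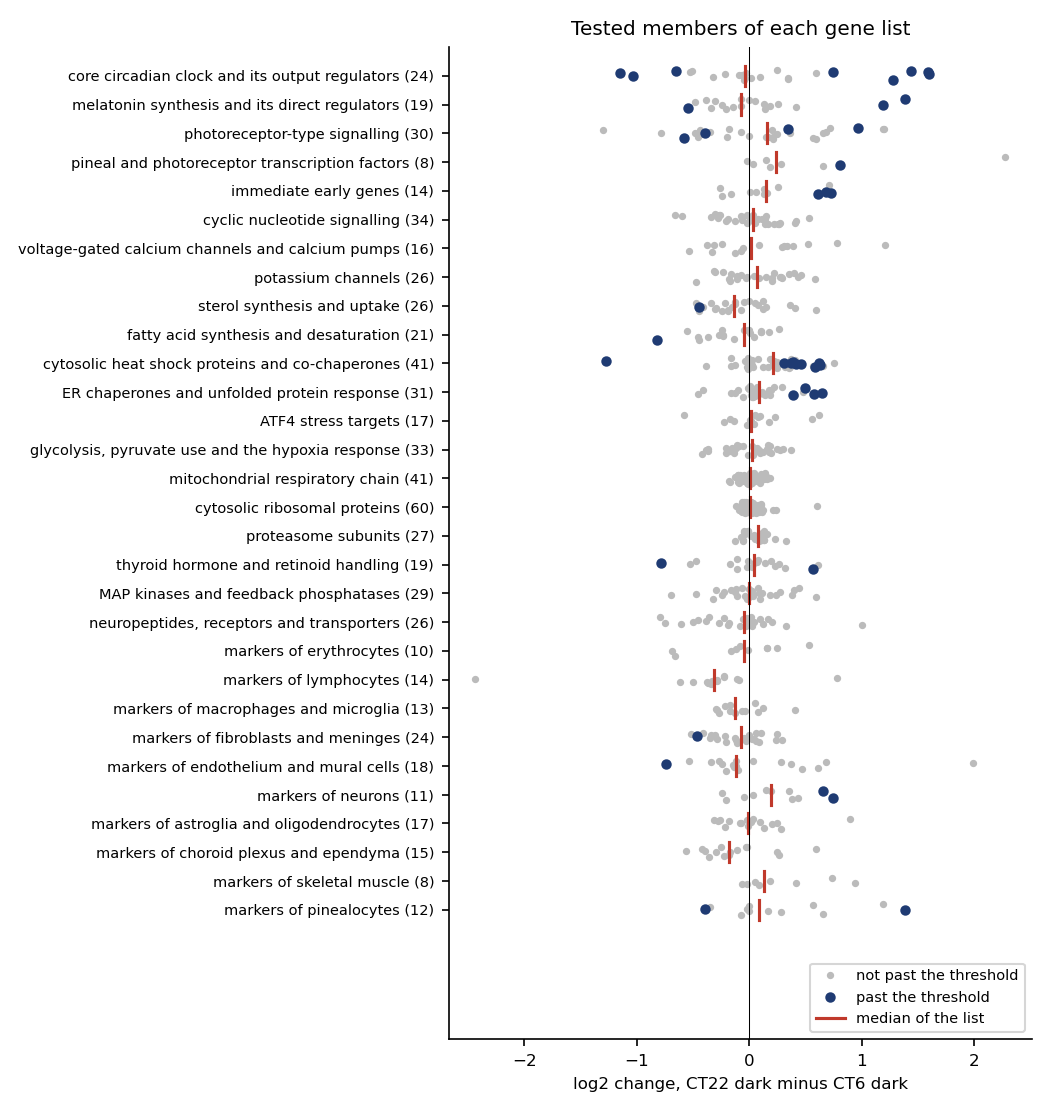
Log2 change, CT22 dark minus CT6 dark (horizontal axis), of every tested member of the 30 gene lists (vertical axis, number tested in brackets), 1 point per gene, with members past the threshold in dark blue and a bar at each list's median. The clock list holds 8 calls and the heat shock list 9, and medians lie close to 0 for the ribosomal, respiratory chain and most signalling lists.

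The same 2 times were also sampled in light-pulsed glands, on 4 other arrays. Both comparisons share the normalisation, the filter and the estimated spread of each probe set. A probe set with a small estimated spread is favoured in both, so the shares passing in both are not independent of the dark calls. Of the 139 probe sets higher at CT22 in the dark, 113 (81.3%) were above 0 in CT22 light minus CT6 light, against 49.7% of all probe sets tested. Of these 139, 48 (34.5%) also passed as higher, against 1.31% of all, and 0 passed as lower. Of the 117 lower probe sets, 91 (77.8%) were below 0, against 50.3% of all, 59 (50.4%) passed as lower, against 1.83% of all, and 3 passed as higher. Of the 24 clock genes tested, 2 passed as higher and 2 as lower in light-pulsed glands, against 5 and 3 in the dark. Over all genes tested 1.77% passed as higher and 2.42% as lower in light-pulsed glands. Several of the genes described above were among the probe sets that passed in both, and the examples given next all did. BMP2 had 9.88 and 9.85 at CT22 with light, against 8.36 and 8.07 at CT6 with light (log2 1.65, limma adjusted p = 1.31e-06), and NR1D2 differed by 1.32 (1e-05). CRY1 differed by -1.33 (limma adjusted p = 2.07e-06), ARNTL by -1.23 (0.00146), INHBB by -1.55 (0.000909) and PPEF2 by -2.36 (0.000102). Of the 15 leading increases 6 passed as higher, against 1.77% of all genes tested, and of the 15 leading decreases 10 passed as lower, against 2.42%. Light-pulsed arrays had their own pulse history at each time, so they are not further replicates of the dark groups.

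Whether the time difference itself differed between light-pulsed and dark glands was tested as an interaction, which passed for 55 probe sets (0.238%). Among the probe sets called in the dark it passed for 14 of the 139 higher and 6 of the 117 lower. These counts are not independent of the dark calls, since the interaction subtracts the same dark values. The interaction passed for 6 of the 41 heat shock genes, 3 of the 31 of the endoplasmic reticulum and 0 of the 24 clock genes. HSPA2 had 12.63 and 12.62 at CT22 with light, against 10.27 and 10.47 at CT6 with light, a difference of 2.26 where dark glands gave 0.62 (interaction 1.64, SE 0.11, limma adjusted p = 7.11e-06). Over the heat shock list 22 genes rose and 3 fell in light-pulsed glands, where 1.77% of all genes tested were higher and 2.42% lower, with a median of 0.44. The transporters SLCO1C1 and SLCO1A2 had estimates of opposite sign with light and in the dark. For SLCO1C1 they were 0.71 with light and -0.78 in the dark (interaction 1.49, SE 0.22, limma adjusted p = 0.0141). For SLCO1A2 they were 0.22 and -1.01 (interaction 1.23, SE 0.19, limma adjusted p = 0.0145). The choroid plexus markers had a median of 0.30 with light and of -0.18 in the dark, and their part in the transporter values was not tested. For AANAT the difference was 0.80 with light and 1.39 in the dark, and the interaction did not pass (-0.59, limma adjusted p = 0.124).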

How the data were processed

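Total RNA of pooled chick pineal glands was hybridised to Affymetrix chicken arrays, 1 array per sample. The values that the authors deposited are linear intensities, 1 for each probe set on each array. The software, scaling and build behind them are not named in the labels used here. Detection calls were not used. Of 38535 probe sets, 96 controls were left out. The platform annotation named 1 gene for 27168 of the other 38439, several for 177 and none for 11094, and 315 IDs were not in the reference gene table. Groups came from the sample labels.

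The intensities were taken to log2 and quantile normalised, and normalised values under 1 (6.20% of the deposited ones were) were set to 1. This step hides any change that most probe sets share. The filter kept 23063 probe sets, those whose mean exceeded log2 3.73, the 40th percentile. The model held 6 group means for 12 arrays, with 6 residual degrees of freedom, and limma 3.58.1 (R 4.3.3) moderated the variances with a trend and 7.29 prior degrees of freedom. SE are those of this fit. Adjusted p-values are by the Benjamini-Hochberg method across the tested probe sets, and 0.05 was the threshold. Where a gene had several tested probe sets (4915 of 10424 genes), the one with the highest mean was read. The further ones of a named gene past the threshold numbered 54, of which 53 had the same direction and 23 also passed, and the exception was 1 dim DNAJA4 probe set at -0.09. Those of the leading genes numbered 31, all in the same direction, and 14 also passed. The text gives further probe sets for some genes only. For genes that did not pass, some of the further probe sets had the other sign. The fit was also run on simulated data, and no result given here rests on that run.

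The comparison, the 30 gene lists (937 genes, 661 of them tested, 40 past the threshold) and their members were chosen with earlier results of these data known. A listed symbol that was missing took a gene holding it as a synonym, and 8 such matches were left out by hand. The text names, by rule, the 15 largest increases and 15 largest decreases past the threshold among genes with a symbol whose arrays did not overlap, the members past the threshold of the lists, and all tested clock and melatonin genes, 92 in all. Other members appear with values as examples chosen after their values were seen. Lists are described by counts and medians, with no set test. Alternatives were the scale of the values, the filter, a constant added before log2, the arrays in the fit, the variance trend, the actin ratio as a covariate, the replicate number as a block, and each of the 4 arrays left out. A planned count of promoter motifs was not made here, since no promoter sequence was used.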

Additional observations from a re-analysis of the deposited data

Results flagged for a closer look

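For 9 of the genes described above, the CT22 minus CT6 difference itself differed between light-pulsed and dark glands (interaction by limma, light minus dark, adjusted over all probe sets tested). The genes were chosen by their dark difference, which the interaction subtracts. Such a choice favours an interaction of the opposite sign to the dark difference, as in EGR1, NR2E3, SLCO1C1 and SLCO1A2. No explanation was tested for any of the 9.

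In 5 chaperone genes the difference was larger after light. HSPA2 differed by 2.26 with light and 0.62 in the dark (interaction 1.64, adjusted p = 7.11e-06), DNAJA4 by 1.47 and 0.59 (0.89, 0.00127), and HSPA5 by 1.44 and 0.65 (0.79, 0.00467). DNAJA1 differed by 1.29 with light and 0.63 in the dark (interaction 0.65, adjusted p = 0.0416), and HSP90B1 by 1.01 and 0.39 (0.61, 0.0317). All 4 arrays of CT22 and CT6 light-pulsed glands lay above the dark arrays of the same time for HSPA2, DNAJA4, HSPA5 and DNAJA1.

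In 2 transporters the fall of dark glands was not seen after light, where the estimates lay above 0. The interaction tests the difference between the 2 values and not the sign of either. SLCO1C1 differed by 0.71 with light and -0.78 in the dark (interaction 1.49, adjusted p = 0.0141), and SLCO1A2 by 0.22 and -1.01 (1.23, 0.0145). In a further 2 genes the rise of dark glands was not seen after light. EGR1, an immediate early factor, differed by -0.28 with light and 0.68 in the dark (interaction -0.97, adjusted p = 0.0495), and NR2E3 by -0.05 and 0.80 (-0.85, 0.0495). The last 2 lie close to the threshold.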

How the results depend on the processing

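All 256 probe sets kept their direction under every alternative that tested them, but for most alternatives this was fixed in advance. The filter, the variance trend, the other groups in the fit and the replicate block do not alter the difference of group means. Leaving out 1 array cannot reverse groups that do not overlap. For such probe sets only the scale of the values, the added constant and the actin ratio could have changed the direction. The number past the threshold moved. It was 1257 with the values as deposited (1229 higher, 28 lower), 108 with no filter, 170 with only the 4 arrays of both groups, 136 with only the 6 dark arrays, 25 with no variance trend, and 72 to 165 with 1 array left out. It was 264 with arrays centred on their medians, 301 with a filter at the 60th percentile, 265 with a constant of 16 added and 267 with the actin ratio as a covariate. Of the 30 leading genes, 7 stayed past the threshold with no variance trend and 18 to 22 with 1 array left out, against 23 to 30 under the others. Of listed genes, 40 in the fit as reported, 93 passed on the deposited values, 20 with no filter, 25 with only the 6 dark arrays, 4 with no variance trend and 16 to 27 with 1 array left out. Of the 60 named genes past the threshold, BMP2, NR1D2, BHLHE41, AANAT, INHBB, ATOH8 and CRY1 kept their call under all 14 alternatives, 12 lost it under more than 7 of them, and 53 lost it with no variance trend. CRY2, YWHAZ and CREM passed only on the deposited values. The light-pulsed count of 724 (301 higher, 423 lower) was 600 on the deposited values (472 and 128) and 764 with centred arrays (272 and 492). The cause was not tested.

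The replicate numbers of the labels were not used as a pairing in the fit as reported. Over all probe sets tested, deviations of same-numbered arrays correlated with r from -0.03 to 0.03 over 15 pairs of groups, 0.01 for CT22 and CT6 in the dark. A pairing that touched few probe sets could escape such a correlation. With the replicate number as a block, 240 probe sets passed, 130 higher and 110 lower, with 28 of the leading 30 genes and 37 listed genes. Genes near the filter at log2 3.73 are limited by signal over background, and detection calls were not used.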

Other observations

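Genes outside the lists gave 2 further groups, chosen after their values were seen, so no support rests on them. Some synaptic and neuronal genes were among those higher in dark glands at CT22, where 0.863% of all genes tested were higher. In the fixed list of 11 neuronal markers, 8 lay above 0 and 3 below, and the sums of the groups overlapped. GJD2, a gap junction gene of neurons given below, was lower. SV2B, a synaptic vesicle protein, had log2 intensities of 8.76 and 8.84 on the CT22 dark arrays, against 8.38 and 8.16 on the CT6 dark arrays (log2 0.53, SE 0.10, limma adjusted p = 0.0292). DOC2B, a calcium sensor of vesicle release, rose by 0.53, CPLX4, a complexin of photoreceptor synapses, by 0.47, and STMN1, a regulator of microtubules, by 0.46. The retinal genes RD3, a regulator of guanylate cyclase, and IMPG2, a matrix proteoglycan, rose by 0.70 and 0.56. In light-pulsed glands none of these 6 passed between CT22 and CT6, with differences of -0.27 to 0.33. Passing in the dark and not after light is not a test of the difference, and no interaction is given for these genes. The chemokine receptor CXCR4 rose by 0.73 in the dark and differed by 0.51 with light (limma adjusted p = 0.00328 and 0.0173).

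Lower in dark glands at CT22 were the muscle-type cytoskeletal genes ACTC1, at 10.13 and 10.25 on the CT22 dark arrays against 10.93 and 10.80 on the CT6 dark arrays (log2 -0.68, limma adjusted p = 0.00116), and ACTN2, by -0.74 (0.0099). CCN2, a matricellular growth factor, fell by 0.66 and F3, tissue factor, by 0.58. ACTC1 also differed after light (log2 -0.62, limma adjusted p = 0.000909), as did GJD2, a gap junction protein of neurons (log2 -0.57 with light and -0.32 in the dark). CCN2, F3 and ACTN2 did not pass after light, at -0.08, 0.01 and 0.07. No interaction is given for these genes either. The skeletal muscle markers of the fixed list gave no call in dark or in light-pulsed glands.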
